A study of Mus musculus with 8 samples.

Results

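RNA of 10 genes of bone morphogenetic protein (BMP) signalling was counted in embryonic mouse epidermis, and signalling itself was not measured. Named by symbol, the ligand genes are Bmp2, Bmp4 and Bmp7. The inhibitor genes are Grem1, Nog, Fst and Bambi, and the target genes are Id1, Id2 and Id3. These genes are 10 of the 23146 named in the count files. Each was counted on 1 RefSeq transcript, and all 10 were among the 16342 genes left by a filter on low counts.

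BMPs are secreted ligands that bind paired type I and type II receptors at the cell surface, and the receptors phosphorylate Smad proteins that enter the nucleus with Smad4. Among the genes that respond are the Id genes, whose products hold back basic helix-loop-helix transcription factors because they pair with them but cannot bind DNA. In skin, BMPs restrain the formation of hair placodes and later drive differentiation of the hair shaft, and secreted antagonists such as noggin from the dermis allow follicles to form.

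The 8 libraries come from 4 groups of 2, with epidermis taken from control and Nir KO embryos at E15.5 and at E17.5 (embryonic day). Control embryos carried floxed Nir alleles, which the knockout embryos carried too, together with Krt14-Cre; Nir is another name of Noc2l. Cre from the promoter of keratin 14 acts in keratinocytes, so other cells of a preparation keep the gene. The labels do not say whether a library is 1 embryo or a pool, or which embryos were littermates, and each p-value reflects only how far these libraries differ, which may be technical.

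Gene counts summed to 25226357 to 28895657 per library. Noc2l itself stood at 97.4 to 107 CPM (counts per 1000000 counts of the library, with totals adjusted by TMM, an edgeR scaling factor) in E15.5 controls and 91.6 to 95.6 CPM in E15.5 knockouts, and at 105 to 121 and 85.4 to 86.9 CPM at E17.5. The fall passed the test at E17.5 (log2 fold change -0.39 ± 0.10 SE, adjusted p = 0.00621) and not at E15.5 (-0.12 ± 0.10, adjusted p = 0.335). Which part of the gene is floxed is not given in the sources used here, so this level does not check the labels. Cell type markers differed between genotypes, and their part in the results was not tested. The summed level of 7 basal keratinocyte markers was 6921 to 7492 CPM in controls, against 1951 to 2021 CPM in E15.5 and 1131 to 1172 CPM in E17.5 knockouts. That of 10 dermal fibroblast markers was 27199 to 33335 CPM in controls, 77550 to 96026 CPM in E15.5 knockouts and 98324 to 103924 CPM in E17.5 knockouts. In bulk RNA, fewer cells of a type cannot be told apart from less RNA per cell.

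At E15.5 the 3 ligand genes fell in knockout epidermis, Grem1 rose 19.8-fold and the Id genes parted, with Id1 and Id3 lower and Id2 higher. Of the 10 genes, 6 fell and 2 rose (edgeR quasi-likelihood test, adjusted p under 0.05), while 22.3% of all genes tested fell and 23.2% rose. At E17.5, 7 fell and 2 rose, while 26.7% of all genes fell and 26.7% rose. The 2 risen genes are therefore a share near that of all genes. The median log2 fold change of the 10 genes was -0.67 at E15.5 and -0.88 at E17.5, beside 0.00 and -0.02 over all genes tested.

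**Figure D1:**
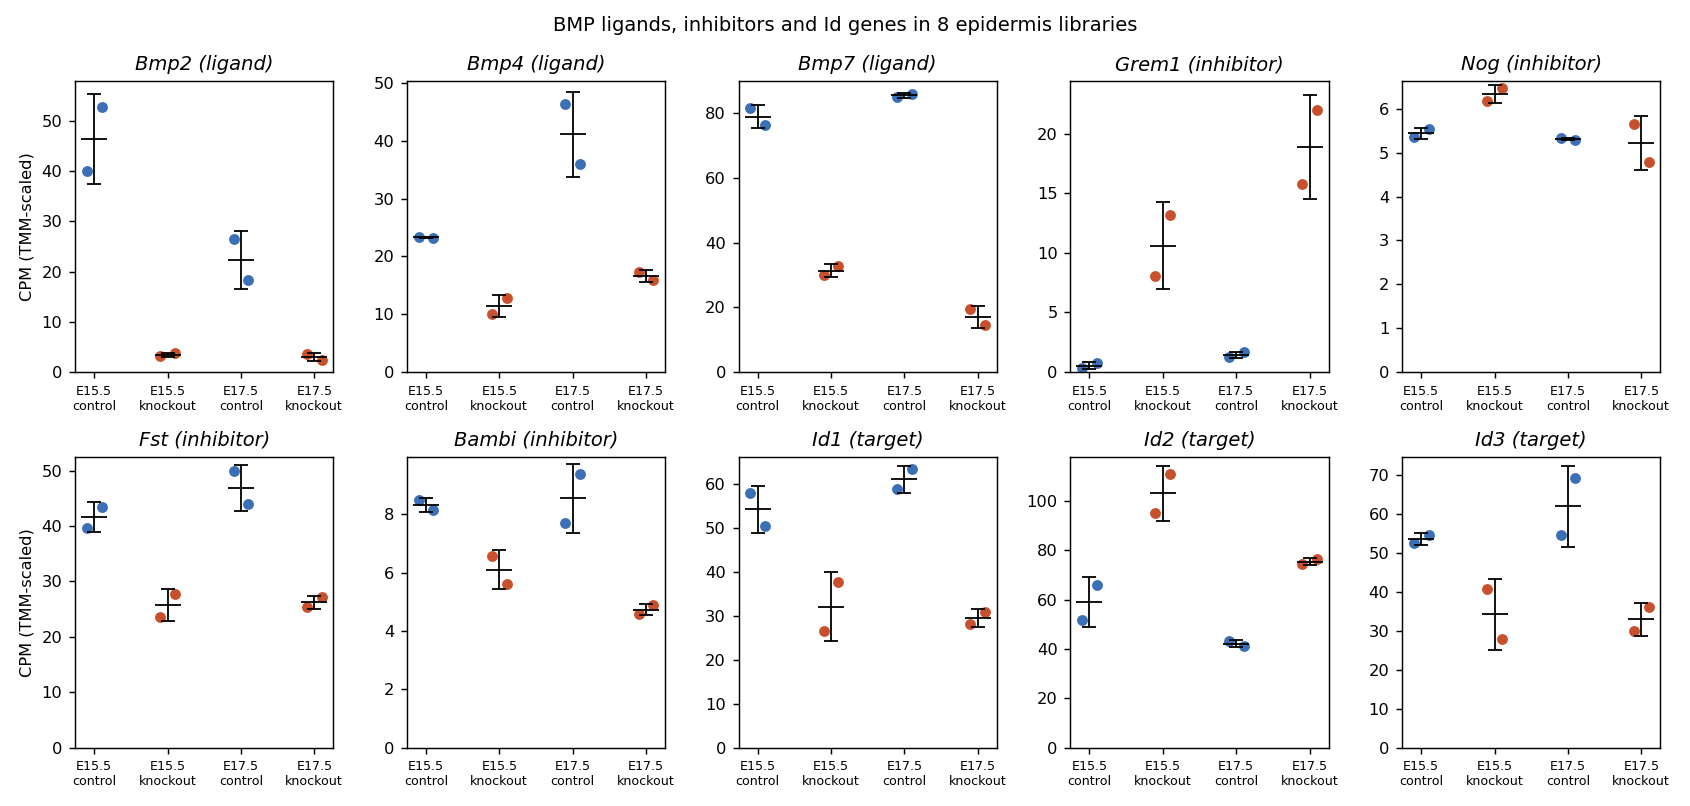
Level of each of the 10 genes in CPM (linear axis from 0) in the 4 groups. Points are single libraries, blue for control and red for knockout, and bars are the mean ± SD of 2 libraries; Bmp2 was at 2.37 to 3.73 CPM in the 4 knockout libraries, below all 4 control libraries.

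Bmp2 encodes a ligand that placodes and differentiating epidermis express. It lies on chromosome 2 from 133552159 to 133562896 (GRCm38). The E15.5 controls held 40.1 and 52.7 CPM of Bmp2 and the knockouts 3.11 and 3.73 CPM. The E17.5 controls held 26.5 and 18.3 CPM and the knockouts 3.54 and 2.37 CPM. Every knockout library was below every control library. The log2 fold change was -3.76 ± 0.24 at E15.5 (13.5-fold lower, adjusted p = 4.0e-07) and -2.92 ± 0.24 at E17.5 (7.56-fold lower, adjusted p = 2.0e-06). The difference between the stages did not pass (0.84 ± 0.34, adjusted p = 0.218). In controls Bmp2 also fell with age, by 1.05 ± 0.21 on the log2 scale from E15.5 to E17.5 (adjusted p = 0.00734). That fall was -0.84 without E15.5 control replicate 2 (adjusted p = 0.101) and -0.81 without E17.5 control replicate 2 (adjusted p = 0.078).

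Bmp4, whose product is made in the dermal condensate under a placode as well as in epithelium, lies on chromosome 14 from 46383525 to 46390669. It stood at 23.3 and 23.2 CPM in E15.5 controls against 9.99 and 12.8 CPM in E15.5 knockouts. At E17.5 the controls were at 46.3 and 36 CPM and the knockouts at 17.3 and 15.9 CPM. The groups did not overlap within a stage. Bmp4 fell by 1.03 ± 0.16 (adjusted p = 3.1e-04) and by 1.31 ± 0.16 (adjusted p = 3.2e-05) on the log2 scale at the 2 stages. Unlike Bmp2, it rose with age in controls (0.82 ± 0.15, adjusted p = 0.00551), although not past the threshold without E15.5 control replicate 2 (0.82, adjusted p = 0.0571). In knockouts its rise of 0.55 ± 0.16 with age (adjusted p = 0.0457) lost its call in 10 of 17 alternative analyses. Exons of the predicted gene Gm15217 overlap Bmp4 on the other strand, and the strand setting of the counting is not given, so their reads cannot be told apart.

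Bmp7 encodes a ligand of epithelium and mesenchyme and lies on chromosome 2 from 172868012 to 172940321. It was at 81.6 and 76.4 CPM in E15.5 controls and 29.9 and 32.8 CPM in E15.5 knockouts. At E17.5 the controls stayed at 85.1 and 86.1 CPM and the knockouts were at 19.4 and 14.6 CPM. Bmp7 fell by 1.33 ± 0.13 at E15.5 (adjusted p = 1.0e-05) and by 2.33 ± 0.14 at E17.5 (adjusted p = 1.2e-07) on the log2 scale.

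Of the 10 genes, Bmp7 was the one whose knockout effect differed between the stages by test, with a further change of -1.00 ± 0.18 at E17.5 (adjusted p = 0.0113). No difference among the 10 was called upward by edgeR, DESeq2 or limma-voom, and 1, that of Bmp2, was upward at an unadjusted edgeR p under 0.05. Over all genes, 1.88% were called upward in this comparison and 2.47% downward. Without E15.5 control replicate 2 the Bmp7 difference was -0.95 (adjusted p = 0.056). In knockouts Bmp7 fell from E15.5 to E17.5 by 0.88 ± 0.13 (adjusted p = 0.00101), and in controls the change was 0.12 ± 0.13 (adjusted p = 0.663).

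**Figure D2:**
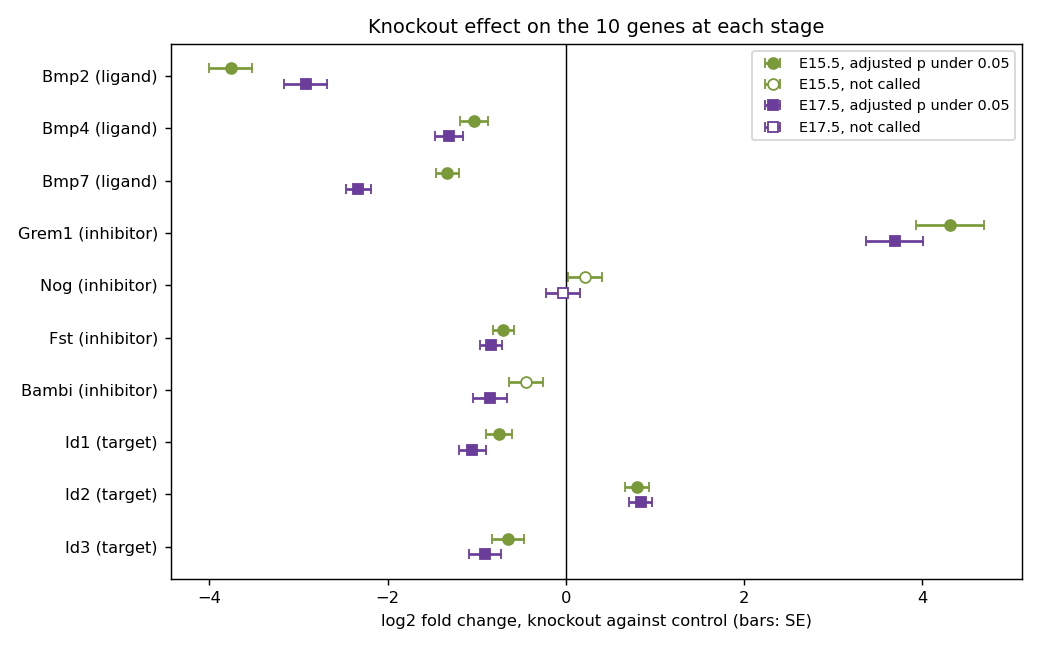
Log2 fold change of knockout against control for each gene, circles for E15.5 and squares for E17.5, with bars for the SE and open symbols where the adjusted p was 0.05 or more. Grem1 lies farthest to the right (4.31 and 3.69), Bmp2 farthest to the left (-3.76 and -2.92), and Nog is open at both stages.

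Grem1 encodes gremlin, a secreted antagonist that binds BMP2, BMP4 and BMP7. It lies on chromosome 2 from 113748675 to 113758648. The E15.5 controls held 0.34 and 0.73 CPM, which is 9 and 19 counts, and the knockouts 8.07 and 13.2 CPM (218 and 376 counts). The E17.5 controls held 1.27 and 1.64 CPM and the knockouts 15.8 and 22 CPM. All 4 knockout libraries were above all 4 control libraries. Grem1 rose by 4.31 ± 0.38 at E15.5 (19.8-fold, adjusted p = 4.3e-06) and by 3.69 ± 0.32 at E17.5 (12.9-fold, adjusted p = 2.7e-06). The first value was 4.95 without E15.5 control replicate 2, which holds most of the control counts.

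The markers of dermal fibroblasts were higher in these libraries too, 10 of 10 called at E15.5 (median log2 fold change 1.38) and 9 of 10 at E17.5 (median 1.50). Per 1000 counts of those 10 genes, Grem1 had 0.0108 and 0.0219 counts in E15.5 controls against 0.084 and 0.171 in E15.5 knockouts, and 0.0466 and 0.0521 against 0.161 and 0.211 at E17.5. On that denominator it was 7.78-fold and 3.77-fold higher in knockouts, with no overlap of the groups. This scale moves with the fibroblast markers themselves, and as a sum of counts most with the most abundant of them. Other sources of Grem1 RNA were not tested.

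The other inhibitors moved less or not past the test. Nog (chromosome 11, 89300638 to 89302559) encodes noggin, the antagonist that dermal cells supply to follicles. It was at 5.36 and 5.53 CPM in E15.5 controls and 6.18 and 6.47 CPM in E15.5 knockouts, and at 5.33 and 5.3 against 5.66 and 4.78 CPM at E17.5. Its log2 fold changes were 0.22 ± 0.19 (adjusted p = 0.376) and -0.03 ± 0.19 (adjusted p = 0.919). The libraries of the 2 genotypes overlapped at E17.5.

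Fst (chromosome 13, 114452262 to 114458989) encodes follistatin, which binds activins strongly and BMPs more weakly. Its level was 39.7 and 43.5 CPM in E15.5 controls against 23.6 and 27.7 CPM in knockouts, and 49.9 and 44 against 25.4 and 27.1 CPM at E17.5. It fell by 0.70 ± 0.12 (adjusted p = 7.8e-04) and by 0.84 ± 0.12 (adjusted p = 1.5e-04) on the log2 scale. The antisense gene Gm47040 overlaps its exons, and reads of the 2 genes cannot be told apart without strand.

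Bambi (chromosome 18, 3507011 to 3516404) encodes a membrane protein that resembles a type I receptor without its kinase and blocks signalling. It was at 8.49 and 8.14 CPM in E15.5 controls against 6.59 and 5.63 CPM in knockouts, and at 7.72 and 9.37 against 4.6 and 4.89 CPM at E17.5. The change did not pass at E15.5 (-0.45 ± 0.19, adjusted p = 0.0700) and Bambi fell at E17.5 (-0.85 ± 0.19, adjusted p = 0.00261). The difference between the stages did not pass (-0.40 ± 0.26, adjusted p = 0.48).

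The target genes split. Id1 (chromosome 2, 152736251 to 152737410) was at 58 and 50.5 CPM in E15.5 controls against 26.6 and 37.7 CPM in knockouts, and at 58.9 and 63.4 against 28.1 and 31 CPM at E17.5. It fell by 0.75 ± 0.15 (adjusted p = 0.00192) and by 1.05 ± 0.15 (adjusted p = 1.5e-04) on the log2 scale. Knockout libraries were below control libraries at both stages.

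Id3 (chromosome 4, 136143822 to 136145392) was at 52.5 and 54.7 CPM in E15.5 controls against 40.6 and 27.8 CPM in knockouts, and at 54.6 and 69.3 against 30 and 36 CPM at E17.5. It fell by 0.65 ± 0.18 (adjusted p = 0.0108) and by 0.91 ± 0.18 (adjusted p = 0.00114). The E15.5 call rests on single libraries, because it was -0.62 without E15.5 control replicate 2 (adjusted p = 0.0569) and -0.40 without E15.5 knockout replicate 2 (adjusted p = 0.0905).

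Id2 (chromosome 12, 25093799 to 25096092) went the other way. It was at 51.7 and 66 CPM in E15.5 controls against 94.9 and 111 CPM in knockouts, and at 43.2 and 41.2 against 74.4 and 76.3 CPM at E17.5. It rose by 0.80 ± 0.13 (adjusted p = 3.4e-04) and by 0.84 ± 0.13 (adjusted p = 2.0e-04). Across the stages Id2 fell in controls (-0.48 ± 0.13, adjusted p = 0.034) and in knockouts (-0.45 ± 0.13, adjusted p = 0.0364), calls that 6 and 3 of 17 alternatives ended.

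Id2 was also higher relative to Id1 in counts compared within a library, which no library scaling enters. Such a ratio does not give the direction of either gene. There were 0.891 and 1.31 Id2 counts per Id1 count in E15.5 controls and 3.57 and 2.94 in knockouts, and 0.734 and 0.65 against 2.65 and 2.46 at E17.5. The mean ratio was 2.96-fold and 3.69-fold higher in knockouts. The ratio of Id3 to Id1 counts overlapped between genotypes, at 0.904 and 1.08 against 1.53 and 0.738 at E15.5 and 0.927 and 1.09 against 1.07 and 1.16 at E17.5. With 2 libraries a group an exact permutation test of such a ratio cannot go below p = 0.333, so none was run.

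Upstream sequence was searched for 4 of the 10 genes. The sequences upstream of Id2, Id3 and Grem1 are shown; Id2 and Grem1 rose in knockouts and Id3 fell. Each is the 250 bases before the annotated start, 5′ to 3′ on the gene's strand, from RefSeq on GRCm38.p6. Id2 is at chr12:25096093-25096342 (minus strand), Id3 at chr4:136143572-136143821 (plus strand) and Grem1 at chr2:113758649-113758898 (minus strand). Capitals mark GGCGCC, a GC-rich motif that Smad1 and Smad5 can bind, and CAGAC, the Smad box, searched on both strands (GTCTG on the printed strand is the same box on the other).
Id2: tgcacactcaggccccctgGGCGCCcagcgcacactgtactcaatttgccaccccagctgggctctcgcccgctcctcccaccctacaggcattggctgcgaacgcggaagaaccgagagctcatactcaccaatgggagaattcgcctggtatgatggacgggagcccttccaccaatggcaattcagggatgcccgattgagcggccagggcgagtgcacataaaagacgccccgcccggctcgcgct
Id3: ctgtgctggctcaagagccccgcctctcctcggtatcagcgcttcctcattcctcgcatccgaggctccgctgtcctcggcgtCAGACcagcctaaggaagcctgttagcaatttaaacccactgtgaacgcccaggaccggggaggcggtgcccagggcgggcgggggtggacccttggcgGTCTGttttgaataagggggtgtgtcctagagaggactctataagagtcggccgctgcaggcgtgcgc
Grem1: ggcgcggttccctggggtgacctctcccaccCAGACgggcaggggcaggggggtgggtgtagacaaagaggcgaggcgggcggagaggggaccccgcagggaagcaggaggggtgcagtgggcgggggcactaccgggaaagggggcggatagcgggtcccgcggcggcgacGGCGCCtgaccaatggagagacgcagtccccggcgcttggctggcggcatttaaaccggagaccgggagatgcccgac

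Id2 had 1 GGCGCC, starting 231 bases before its start, and no CAGAC. Id3 had no GGCGCC and 2 CAGAC boxes, starting 167 and 68 bases before the start. Grem1 had 1 of each, at 78 and 219 bases. Bmp4, the other of the 4, had neither in its 250 bases. Of 32851 promoter windows of this length, 9.59% hold GGCGCC and 42.2% hold CAGAC. These matches describe the letters only, and binding of Smads to them was not tested.

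**Figure D3:**
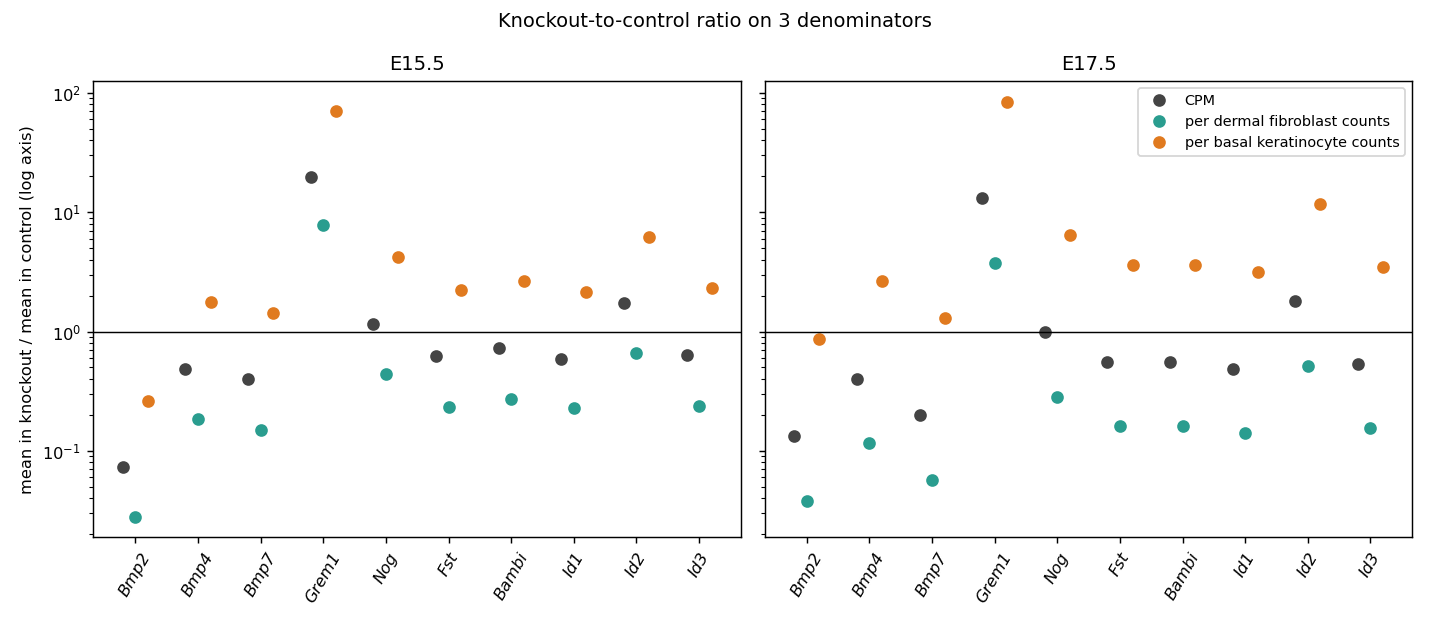
Ratio of the mean in knockouts to the mean in controls (log axis, line at 1) for each gene at E15.5 and E17.5, on 3 denominators: CPM in grey, counts of 10 dermal fibroblast markers in green and counts of 7 basal keratinocyte markers in orange. Grem1 lies above 1 on all 3 at both stages. Bmp4, Bmp7, Fst, Bambi, Id1 and Id3 lie below 1 in CPM and above 1 per basal keratinocyte count.

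Set against keratinocyte markers, most of the falls turned. All 7 basal keratinocyte markers fell at both stages, with median log2 fold changes of -1.82 and -3.26. Per 1000 counts of these 7 genes, Bmp7 had 11.1 and 11 counts in E15.5 controls and 15.3 and 16.2 in knockouts, and 11.4 and 11.5 against 17.2 and 12.4 at E17.5. Its ratio was thus 1.43-fold and 1.29-fold higher in knockouts where its CPM was lower. Bmp4 was 1.76-fold and 2.63-fold higher on this scale, Fst 2.21-fold and 3.63-fold, Bambi 2.65-fold and 3.6-fold, Id1 2.13-fold and 3.14-fold, and Id3 2.3-fold and 3.46-fold. This scale moves with the keratinocyte markers themselves, so a gene that fell less than their sum comes out higher. Nog, not called in CPM at either stage, was 4.18-fold and 6.39-fold higher on it.

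Bmp2 differed from those genes at E15.5. It had 5.43 and 7.61 counts per 1000 basal marker counts in controls and 1.59 and 1.85 in knockouts, 3.79-fold lower. At E17.5 the values overlapped, with 3.55 and 2.44 in controls and 3.13 and 2.02 in knockouts. Id2 was 6.25-fold and 11.6-fold higher per basal marker count and 1.5-fold and 1.95-fold lower per fibroblast marker count. Its direction on these scales depends on the markers it is set against, as was so for Bmp4, Bmp7, Nog, Fst, Bambi, Id1 and Id3. Id1, for example, was 4.41-fold and 7.16-fold lower per fibroblast marker count. The cells that hold Id2 RNA were not tested.

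Markers of placode and follicle epithelium, which express Bmp2, fell in the same libraries. All 7 were lower at both stages (median log2 fold changes -5.88 and -5.25), and their summed level was 639 to 745 CPM in E15.5 controls, 306 to 351 CPM in E15.5 knockouts, 950 to 1071 CPM in E17.5 controls and 339 to 419 CPM in E17.5 knockouts. Of them, Krt17 fell least, with log2 fold changes of -0.61 at E15.5 and -1.00 at E17.5. A sum of CPM weighs the most abundant markers most, so it need not follow the median. Dkk4 was at 0 in 1 E17.5 knockout library. Markers of the dermal condensate and papilla, where Bmp4 and noggin are made, went both ways at E15.5 (3 of 8 higher, 5 lower) and mostly down at E17.5 (1 higher, 5 lower). The part of either list in the changes of the ligands was not tested. Markers of endothelium (6 of 6), myeloid cells (5 of 5) and erythroid cells (5 of 5) rose at both stages, those of skeletal muscle at 5 and then 6 of 6, and those of melanocytes at 4 and then 0 of 5, while all 5 of suprabasal keratinocytes fell at both. Of these lists, none had a gene at 0 in any library.

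The ratios of Grem1 and Nog counts to Bmp4 counts within a library also differed between genotypes. Other antagonist genes were not set against Bmp4, and in CPM some of them rose (Chrd) and others fell (Sostdc1). There were 0.0146 and 0.0314 Grem1 counts per Bmp4 count in E15.5 controls and 0.807 and 1.04 in knockouts, and 0.0274 and 0.0455 against 0.912 and 1.38 at E17.5. The mean ratio was 40.1-fold and 31.4-fold higher in knockouts. For noggin the change was smaller, with 0.23 and 0.238 Nog counts per Bmp4 count in E15.5 controls and 0.619 and 0.507 in knockouts, and 0.115 and 0.147 against 0.326 and 0.3 at E17.5. The groups did not overlap in either ratio. In CPM Bmp4 fell at both stages, and Nog was called at neither. The genes differ in length, so a ratio is read only against the same ratio in the other group.

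The 10 genes were also compared across the stages. From E15.5 to E17.5, 1 rose and 2 fell in controls, while 3.15% of all genes rose and 7.70% fell. In knockouts 1 rose and 2 fell as well, beside 6.19% and 6.91% of all genes. The genes were Bmp4 (risen), Bmp2 and Id2 (fallen) in controls and Bmp4 (risen), Bmp7 and Id2 (fallen) in knockouts. Grem1 was higher at E17.5 in both genotypes without passing, by 1.44 ± 0.44 in controls (adjusted p = 0.0613) and 0.83 ± 0.27 in knockouts (adjusted p = 0.0682).

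Of 53 other genes of the pathway, 49 passed the filter on low counts. At E15.5, 13 rose (26.5%) and 15 fell (30.6%), beside 23.2% and 22.3% of all genes tested. At E17.5, 12 rose (24.5%) and 16 fell (32.7%), beside 26.7% of all genes in each direction. Their medians were -0.10 and -0.04, beside 0.00 and -0.02 over all genes. Bmpr1a, the main type I receptor of skin epithelium, changed by -0.04 ± 0.11 at E15.5 (adjusted p = 0.826) and fell by 0.37 ± 0.11 at E17.5 (adjusted p = 0.0192), which was -0.25 without E17.5 control replicate 1 (adjusted p = 0.132) and -0.29 without E17.5 knockout replicate 2 (adjusted p = 0.136). Bmpr1b, the other such receptor, fell at E15.5 (-0.94 ± 0.23, adjusted p = 0.00601), although its value was -0.70 without E15.5 knockout replicate 1 (adjusted p = 0.061), and was at -0.05 ± 0.23 at E17.5. The type II receptor gene Bmpr2 was at 0.10 ± 0.19 at E15.5 and 0.00 ± 0.19 at E17.5, where its value turned from 0.42 without control replicate 1 to -0.33 without control replicate 2. Acvr1 and Acvrl1 rose at both stages and Acvr2a fell at both.

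Of the 4 transducers none was called at E15.5, and Smad5 and Smad9 fell at E17.5. Among all genes tested, 23.2% rose and 22.3% fell at E15.5, and 26.7% went each way at E17.5. Smad9 fell by 2.07 ± 0.45 at E17.5 (adjusted p = 0.00257). Its level was low, at 3.88 and 2.99 CPM in E17.5 controls and 0.73 and 0.898 CPM in E17.5 knockouts. Smad1 was at -0.12 ± 0.11 and -0.06 ± 0.11, and Smad4, the partner shared with the activin pathway, at 0.10 ± 0.09 at both stages. Smad5 was at -0.05 ± 0.09 at E15.5 and fell by 0.29 ± 0.09 at E17.5 (adjusted p = 0.0235), a call that ended without E17.5 control replicate 1 (-0.21, adjusted p = 0.132) and without E17.5 knockout replicate 1 or 2 (-0.31 each, adjusted p = 0.0983 and 0.0877).

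**Figure D4:**
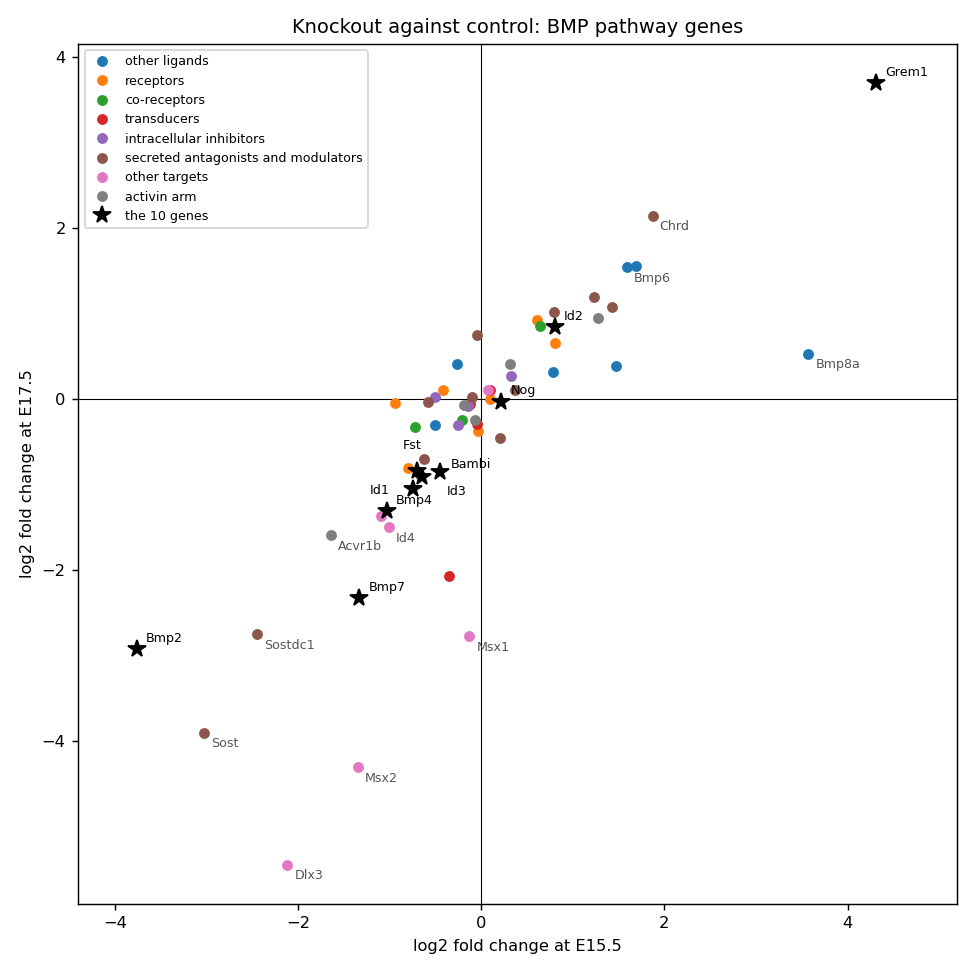
Log2 fold change of knockout against control at E15.5 (horizontal) and E17.5 (vertical) for the 10 genes (black stars) and 49 other genes of the pathway (circles, coloured by role). Receptors and transducers lie within 1 of 0 on both axes except Smad9 (-2.07 at E17.5), while Dlx3 (-2.12 and -5.44) and Msx2 (-1.35 and -4.30) lie far below.

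Of 12 other secreted antagonists and modulators, 4 rose and 4 fell at E15.5, and 5 rose and 3 fell at E17.5. Among all genes tested, 23.2% rose and 22.3% fell at E15.5, and 26.7% went each way at E17.5. Chrd, which encodes chordin, rose by 1.87 ± 0.19 (adjusted p = 1.1e-05) and 2.14 ± 0.19 (adjusted p = 2.8e-06). Sostdc1, a BMP and Wnt inhibitor of placode borders, fell by 2.45 ± 0.15 (adjusted p = 2.8e-07) and 2.75 ± 0.15 (adjusted p = 7.3e-08). Sost, its relative, fell by 3.03 ± 0.46 (adjusted p = 2.5e-04) and fell by 3.90 ± 0.39 (adjusted p = 8.3e-06). Low levels limit these Sost fold changes. It was at 1.89 and 2.3 CPM in E15.5 controls. Knockouts held 0.185 and 0.317 CPM at E15.5 and 0.511 and 0.431 CPM at E17.5. Per 1000 fibroblast marker counts Chrd was 1.36-fold and 1.29-fold higher in knockouts, and per 1000 basal keratinocyte marker counts Sostdc1 was 1.53-fold lower at E15.5 and overlapped between genotypes at E17.5. Among the other called genes of this list, named after their values were seen, were Fstl1 and Bmp1 (risen at both stages), Bmper (risen at E17.5), Fstl3 (fallen at both, -0.63 and -0.70) and Tll1 (fallen at E15.5).

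Of 7 other ligand genes that passed the filter, 3 rose and 1 fell at E15.5 (Bmp5, Bmp6 and Bmp8a risen, Bmp3 fallen). Bmp6 alone was called at E17.5. The shares of all genes tested were 23.2% risen and 22.3% fallen at E15.5, and 26.7% each way at E17.5. Bmp6 rose by 1.59 ± 0.23 (adjusted p = 1.7e-04) and 1.54 ± 0.22 (adjusted p = 1.4e-04) at the 2 stages, from 3.4 and 2.73 to 10.5 and 7.98 CPM at E15.5. Per 1000 fibroblast marker counts Bmp6 did not show that rise, with 0.108 and 0.0818 counts in E15.5 controls against 0.109 and 0.103 in knockouts, which overlap, and 0.112 and 0.131 against 0.105 and 0.101 at E17.5, where knockouts were 1.18-fold lower. In the activin arm, which follistatin blocks, the type I receptor gene Acvr1b fell by 1.64 ± 0.12 (adjusted p = 8.8e-07) and 1.59 ± 0.12 (adjusted p = 7.6e-07). Per 1000 basal keratinocyte marker counts its direction turned, to 1.15-fold and 2.16-fold higher in knockouts.

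Of 6 other genes that BMP can induce, 4 fell at E15.5 (Dlx3, Msx2, Id4 and Hey1), and these and Msx1 fell at E17.5. Over all genes tested, 22.3% and 26.7% fell at the 2 stages. Atoh8 was called at neither stage (0.07 ± 0.15 and 0.10 ± 0.15). Dlx3, a homeobox gene of differentiating epidermis and hair, fell by 2.12 ± 0.11 (adjusted p = 7.4e-08) and 5.44 ± 0.13 (adjusted p = 1.6e-09), from 125 and 136 CPM to 2.99 and 3.02 CPM at E17.5. Msx2, a homeobox gene of the hair shaft, fell by 1.35 ± 0.20 (adjusted p = 2.5e-04) and fell by 4.30 ± 0.22 (adjusted p = 3.3e-08). Id4, the fourth Id gene, fell by 1.01 ± 0.22 (adjusted p = 0.00321) and 1.50 ± 0.24 (adjusted p = 2.6e-04). Per 1000 basal marker counts, Dlx3 was 1.21-fold lower at E15.5 and 6.69-fold lower at E17.5, and Msx2 was 1.41-fold higher and then 3.05-fold lower. On that scale Id4 was 1.77-fold and 2.3-fold higher at the 2 stages, on the same side as Id1 and Id3.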

How the data were processed

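Total RNA of epidermis was sequenced in 8 libraries, 2 in each of 4 groups. Per the series' design text, the authors aligned reads to mm10 with TopHat version 2 and counted them with HOMER. The deposited values are raw counts per RefSeq transcript with no normalization; strand setting, HOMER version and handling of reads with several matches were not stated there or in the labels.

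Transcripts were named from the RefSeq table of GRCm38.p6 (29908 of 30521) or GENCODE M21 (182); the 431 without a name held 2.08% of counts and were left out. A gene was represented by its transcript with the largest total. Genes were filtered with filterByExpr and scaled by TMM, and all 8 libraries were fitted by group with the quasi-likelihood method of edgeR 4.0.16 (R 4.3.3). P-values were adjusted by Benjamini and Hochberg's method across the 16342 genes tested, and 0.05 was the threshold. The SE is the absolute log2 fold change over the square root of F. The script was tested on simulated data. Limma 3.58.1 (voom) and DESeq2 1.42.0 were among the alternatives.

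The 10 genes, the lists and the naming rule were chosen with earlier results of these data known. The rule named the 10 genes, 6 core receptors and transducers, and per role up to 3 other pathway genes called at both stages with an absolute log2 fold change of at least 1. The 53 pathway genes cover ligands, receptors, co-receptors, transducers, inhibitors, targets and the activin arm. Of 6 myeloid markers 5 were found. The values of 1 pathway gene are not reported here.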

Additional observations from a re-analysis of the deposited data

Results flagged for a closer look

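For 5 genes the knockout effect differed between E17.5 and E15.5 by the test of the difference itself (edgeR, adjusted over all genes). For Bmp7 the difference was -1.00 ± 0.18 on the log2 scale (adjusted p = 0.0113). Among the other pathway genes it was -3.04 ± 0.47 for Bmp8a (adjusted p = 0.00429), -2.64 ± 0.45 for Msx1 (adjusted p = 0.00666), -2.95 ± 0.30 for Msx2 (adjusted p = 3.0e-04) and -3.32 ± 0.17 for Dlx3 (adjusted p = 3.6e-06). Bmp8a and Msx1 are named because their differences were seen to pass. Bmp8a stood at 8.22 and 8.13 CPM in E15.5 knockouts, against 0.528 and 0.845 CPM in E15.5 controls and 1.13 and 1.37 CPM in E17.5 knockouts. Msx1 stood at 9.53 and 14.7 CPM in E17.5 controls and between 1.31 and 2.12 CPM in the 6 other libraries.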

How the results depend on the processing

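Each gene was refitted under RLE size factors, library totals alone, no filter, a stricter filter (1 CPM in 4 libraries), DESeq2, limma-voom, summed transcripts, only the groups compared, the replicate block, and without each library. Of 840 refitted values of the 10 genes, 804 kept their side of the threshold and, where called, their direction, 25 lost a call, 11 gained one and 0 reversed. At E15.5 the called number was 7 to 8 of 10 over all alternatives, and at E17.5 it was 9 in each. Leaving out a library gave 0 to 1 genes for the difference between stages, 0 to 4 for the control stages and 1 to 3 for the knockout stages. The difference call and all 3 control stage calls ended without E15.5 control replicate 2. Without E17.5 control replicate 2, 1 control stage call was left, and without E17.5 knockout replicate 1 or 2, 1 knockout stage call. A lone library was assumed to vary like the other groups. Among the named pathway genes, Bmpr2 at E17.5 was 0.42 without E17.5 control replicate 1 (adjusted p = 0.0212) and -0.33 without replicate 2 (adjusted p = 0.0482); its 2 control levels were 54.4 and 32.4 CPM. The cause was not tested. With the replicate block, 8 of the 10 genes were called at E15.5 and 9 at E17.5, as without it, and 1, 4 and 3 for the difference, control stages and knockout stages. Nothing in the labels pairs equal numbers, and deviations of same-numbered libraries correlated at -0.11 to 0.10. Depth limits the Grem1 fold change, since the E15.5 controls hold 9 and 19 counts.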

Other observations

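Further pathway genes that the naming rule did not pick were looked at after their values were seen. Fstl1, a secreted glycoprotein gene of mesenchyme, rose from 818 and 847 to 2010 and 1894 CPM at E15.5 (log2 fold change 1.23 ± 0.14, adjusted p = 2.7e-05) and by 1.19 ± 0.14 at E17.5 (adjusted p = 2.5e-05). Bmp1, which encodes not a ligand but a protease that cleaves procollagen and chordin, rose by 0.79 ± 0.11 (adjusted p = 1.7e-04) and 1.02 ± 0.11 (adjusted p = 1.9e-05).

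Per 1000 dermal fibroblast marker counts these 2 genes did not share the rise of Grem1. That denominator is a sum of counts, in which the most abundant markers weigh most. At E17.5 the log2 fold changes of its genes ran from 0.32 (Twist2, not called) to 2.00 (Col1a1). The knockout-to-control ratio at E15.5 and E17.5 was 0.88 and 0.663 for Fstl1 and 0.648 and 0.587 for Bmp1, against 7.78 and 3.77 for Grem1. Inhbb, an activin subunit gene, rose in CPM (1.27 ± 0.16, adjusted p = 7.8e-05, and 0.95 ± 0.16, adjusted p = 4.5e-04) and was at 0.908 and 0.566 on that scale.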
